A study of Mus musculus with 12 samples.

Results

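The replication-dependent histone genes of the mouse were described in cells of the peritoneal lavage. They were taken as every gene symbol of the files that begins with Hist1h, Hist2h, Hist3h or Hist4h, which gave 67 of 21851 genes. By symbol, 6 encode the linker histone H1, 18 encode H2A, 18 encode H2B, 12 encode H3 and 13 encode H4. In GRCm38, 54 of them lie in the Hist1 cluster on chromosome 13, 10 in Hist2 on chromosome 3, 2 in Hist3 on chromosome 11, and 1, Hist4h4, on chromosome 6. The mice were of the C57BL/6J strain, either wild type or with a knockout of lactoferrin (Ltf), and had been given saline (PBS) or the bacterial lipopolysaccharide (LPS) into the peritoneum, with 3 RNA-seq libraries in each of the 4 groups. The labels do not say how the knockout was made, and they give no other allele, no age, no LPS dose and no time between injection and lavage. Values were taken to be FPKM, in which fragment counts are corrected for transcript length and library size. Comparison of levels between these genes is limited by the transcript models used, the sequence they share and the unknown selection of RNA, as described below.

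Histones H2A, H2B, H3 and H4 form the core that DNA is wound around, and H1 binds the linker between cores. The cluster genes are transcribed in large amounts in S phase, when new DNA has to be packed, and fall silent when replication ends. Their mRNAs are known for ending in a short stem-loop instead of a poly(A) tail. The stem-loop is bound by the protein encoded by Slbp, and the mRNA is cut shortly after it. Several of these genes are also known to give longer, polyadenylated mRNAs in cells that do not divide. Whether poly(A) RNA was selected for these libraries is not given in the sources used here.

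The stem-loop was looked for first, since it marks the end of the short mRNA and shows how much annotated sequence lies beyond it. The pattern was a run of 16 letters after the stop codon, with GG, 2 free bases, CTTTT, a free base, AG, 2 free bases and CC, read on the strand of the transcript in GENCODE M21 models. It was found in 44 of the 67 genes, of which 52 have at least 16 bases annotated after the stop codon. Among all 21699 protein-coding genes 61 hold it, or 0.2811%. The 3 histone genes with the highest levels that hold it, and Hist1h4c, the gene just under the minimum level for the test, are shown here with 5 bases on each side and the pattern in capitals.
Hist3h2a (chr11:58955167-58955192, plus strand): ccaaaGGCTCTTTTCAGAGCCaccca
Hist1h4i (chr13:22040961-22040986, minus strand): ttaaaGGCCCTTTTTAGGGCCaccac
Hist1h1c (chr13:23739507-23739532, plus strand): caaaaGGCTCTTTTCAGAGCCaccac
Hist1h4c (chr13:23698084-23698109, minus strand): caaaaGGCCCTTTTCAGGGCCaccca
The stems of Hist3h2a and Hist1h1c have the same 16 letters, and the bases on both sides differ. In Hist1h2bc and Hist2h2be these letters are not in the annotated sequence after the stop codon.

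Promoters were read as the 250 bases before the start site in RefSeq models of GRCm38.p6, where all 67 genes matched by symbol or synonym and 62 have a promoter in the table, and 3 motifs were searched on both strands in windows that also take in the first 50 transcribed bases. The octamer ATTTGCAT, which Oct factors bind, is known from H2B promoters. It was present in a promoter of 14 of 62 genes, against 1.735% of all 32851 promoters, and those 14 were 7 of 18 H2A and 7 of 16 H2B genes. Here and below, a cluster gene counts if any of its promoters matches, while the background counts single promoters. The shares are therefore not of like units. TATAAA was present in 35 of 62, against 13.6% of all promoters. CCAAT was present in 53 of 62, against 37.4% of all. It was found for every H1, H2A, H2B and H3 gene with a promoter present, but for 3 of 12 H4 genes. A match is a run of letters and not evidence of binding. Hist1h2bc and Hist2h2be have no entry in the promoter table. The upstream bases of the other 3 genes that were tested follow, with matches in capitals, because these are the cluster genes whose levels could be compared between groups.
Hist3h2a (chr11:58954435-58954684, plus strand): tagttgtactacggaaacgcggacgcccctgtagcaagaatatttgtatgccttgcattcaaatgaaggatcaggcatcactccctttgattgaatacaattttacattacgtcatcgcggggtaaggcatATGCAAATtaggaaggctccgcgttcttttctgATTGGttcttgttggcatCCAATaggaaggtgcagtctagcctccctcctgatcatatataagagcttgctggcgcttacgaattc
Hist1h4i (chr13:22041363-22041612, minus strand): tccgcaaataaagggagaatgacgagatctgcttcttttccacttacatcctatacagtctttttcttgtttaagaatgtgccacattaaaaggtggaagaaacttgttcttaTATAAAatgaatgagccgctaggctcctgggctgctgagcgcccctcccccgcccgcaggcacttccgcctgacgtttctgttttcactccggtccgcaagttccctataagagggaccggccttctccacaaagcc
Hist1h1c (chr13:23738557-23738806, plus strand): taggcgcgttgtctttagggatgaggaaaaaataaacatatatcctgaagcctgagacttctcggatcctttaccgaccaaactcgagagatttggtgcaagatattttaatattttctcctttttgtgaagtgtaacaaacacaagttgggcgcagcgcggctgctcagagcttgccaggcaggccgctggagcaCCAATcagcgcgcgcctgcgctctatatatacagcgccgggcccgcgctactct
The Hist3h2a window holds the octamer once, read as ATGCAAAT, and CCAAT once on each strand. The Hist1h4i window holds TATAAA once, and the Hist1h1c window holds CCAAT once.

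Most cluster genes were near or at the bottom of the scale. Over the 12 libraries 5 of 67 had a mean of at least 1 FPKM, or 7.46%, against 45.0% of all genes. A further 49 had a mean above 0 and below 1 FPKM, and 13 were at 0 in every library. The 5 genes were Hist3h2a, which encodes an H2A outside the large clusters, with a mean of 6.68 FPKM, Hist1h4i (H4) with 4.58, Hist1h1c (linker histone H1.2) with 2.25, Hist1h2bc (H2B) with 1.87 and Hist2h2be (H2B) with 1.78 FPKM. Hist3h2a was the highest of them in 11 of 12 libraries and Hist1h4i in the other, knockout LPS replicate 1. The order of Hist1h1c, Hist1h2bc and Hist2h2be changed between libraries. No H3 gene reached the minimum, and the highest of the 12 was Hist1h3a with a mean of 0.342 FPKM. Just outside the minimum were Hist1h4c with 0.845, Hist1h4d with 0.512 and Hist3h2ba with 0.404 FPKM. The 5 genes made up between 48.1% and 82.1% of the summed FPKM of all 67 in a library.

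**Figure D1:**
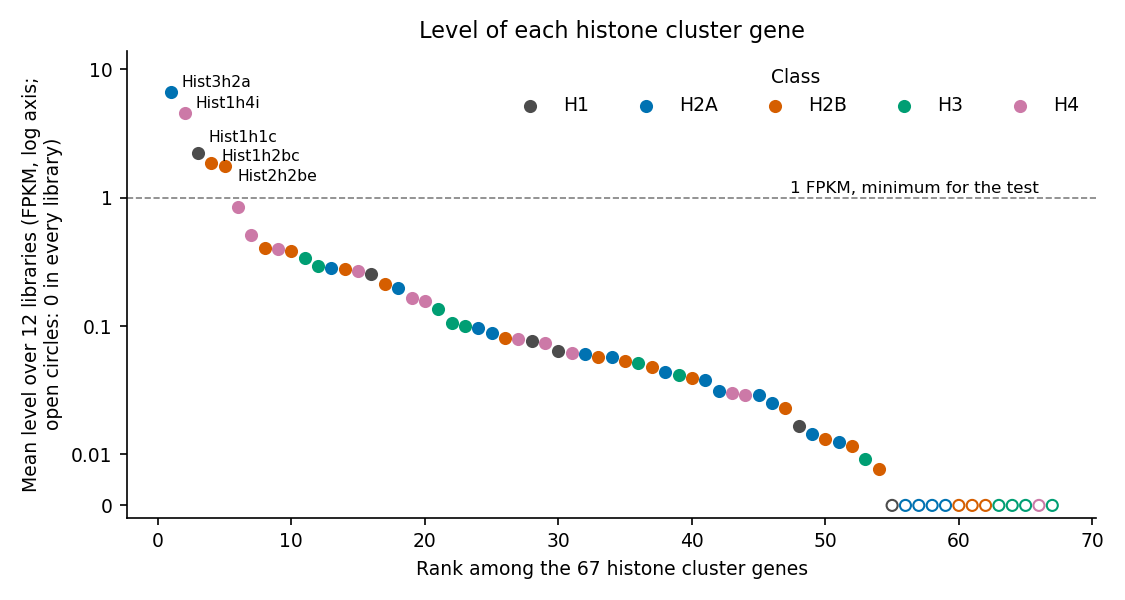
Mean level over the 12 libraries (vertical axis, FPKM on a log axis, with genes at 0 in every library as open circles on the baseline) against rank among the 67 histone cluster genes, coloured by histone class. The 5 named genes lie above the dashed minimum of 1 FPKM, and no H3 gene does.

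All 5 belong to the genes with a long annotated 3' end. More than 200 bases are annotated after the stop codon in 24 of the 67 genes, and 5 of these 24 reached 1 FPKM, while none of the other 43 did. The medians of the mean levels of these 24 and 43 genes were 0.072 and 0.044 FPKM, so a long 3' end did not by itself go with a level above 1. Hist3h2a has 1643 annotated bases past its stem-loop, Hist1h1c has 840 and Hist1h4i has 330. Hist1h2bc has 742 annotated bases after the stop codon and Hist2h2be has 2192. In 21 genes the model ends within 100 bases of the stem-loop, and the highest mean among them was 0.401 FPKM. FPKM divides by the length of the annotated model, so these levels also depend on which model the authors used, which is not given in the sources used here.

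**Figure D2:**
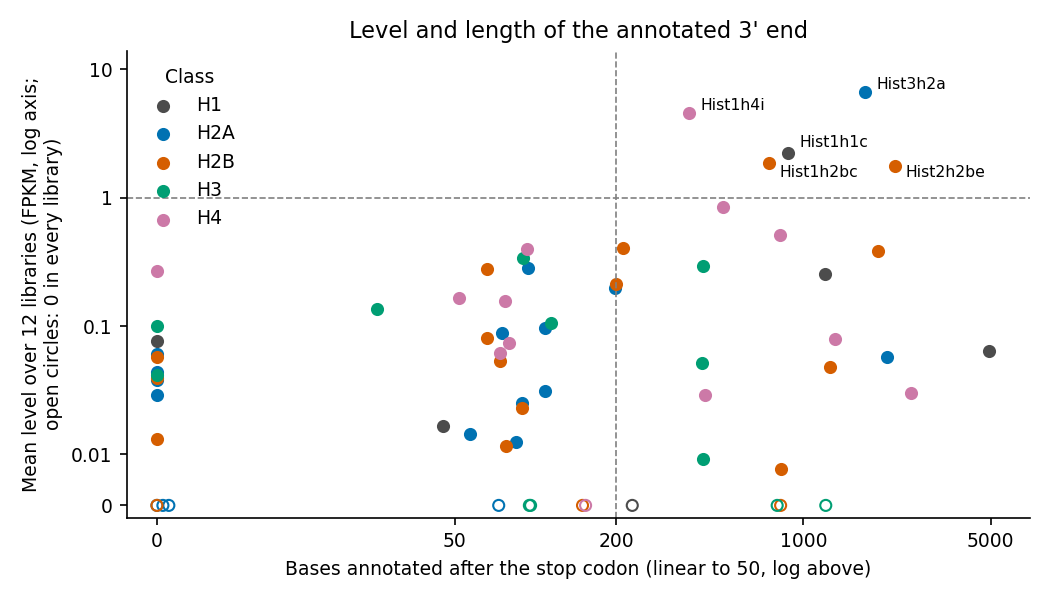
Mean level over the 12 libraries (vertical axis, FPKM on a log axis, with open circles for genes at 0 in every library) against the number of bases annotated after the stop codon (horizontal axis, linear to 50 and log above), 1 point a gene, coloured by class. All 5 genes above 1 FPKM (upper dashed line) lie to the right of 200 bases, where 19 other genes lie below 1 FPKM.

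The cluster genes are near copies of each other, which limits how far reads can be given to 1 of them. In 34 of the 67 transcripts fewer than 50% of the 50-base windows occur in no other gene's transcripts. The 5 genes tested had between 68.5% (Hist3h2a) and 100% (Hist2h2be) unique windows, and the 49 genes below 1 FPKM had a median of 40.6%. Hist3h2a lies at 58954685 to 58956830 on the plus strand of chromosome 11, inside the annotated span of Trim17 on the same strand, and 31.5% of its windows also occur in Trim17 transcripts. Trim17 itself was at 0.623, 0.450 and 0.972 FPKM under PBS and at 0.112, 0.244 and 0.351 FPKM under LPS in wild type. In the knockout it was at 0.412, 0.284 and 0.292 FPKM under PBS and at 0.245, 0.316 and 0.311 FPKM under LPS. The part of Trim17 in the Hist3h2a values was not tested. The other 4 genes tested overlap no annotated gene. Hist1h4i lies at 22040636 to 22041362 (minus strand), Hist1h1c at 23738808 to 23740367 and Hist1h2bc at 23684199 to 23692908 (plus strand) on chromosome 13, and Hist2h2be at 96221119 to 96223738 (plus strand) on chromosome 3.

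In wild type all 5 genes were lower with LPS. Hist1h2bc was at 3.47, 4.48 and 3.89 FPKM in the 3 PBS libraries and at 0.331, 0.341 and 0.129 FPKM in the 3 LPS libraries. Hist2h2be was at 2.43, 2.42 and 6.86 FPKM under PBS and at 0.358, 0.267 and 0.478 FPKM under LPS. These H2B genes showed the widest gaps, with means lower by 14.8 times and 10.6 times, and the LPS libraries, at 0.478 FPKM or less, were far from the lowest PBS library at 2.42 FPKM. Hist1h1c, the H1 gene, was at 3.61, 3.50 and 6.53 FPKM under PBS and at 0.888, 0.602 and 1.40 FPKM under LPS. Hist1h4i was at 5.34, 7.87 and 7.88 FPKM under PBS and at 2.58, 3.44 and 3.67 FPKM under LPS. Hist3h2a was at 8.22, 10.1 and 15.02 FPKM under PBS and at 4.78, 4.80 and 4.84 FPKM under LPS. The groups did not overlap for any of the 5, as was so for 38.9% of all genes tested on this side. The means were lower by 4.72 times for Hist1h1c, 2.31 times for Hist3h2a and 2.18 times for Hist1h4i. Replicate 3 was the highest PBS library for 4 of the 5 genes, Hist1h2bc being the exception, and without it the Hist2h2be mean was lower by 6.59 times in place of 10.6.

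Tested with limma on log2(FPKM + 1), Hist1h2bc fell by 1.97 ± 0.13 (SE, adjusted p = 9.33e-07), Hist2h2be by 1.73 ± 0.26 (adjusted p = 0.000169) and Hist1h1c by 1.48 ± 0.27 (adjusted p = 0.000649). Hist3h2a fell by 1.02 ± 0.28 (adjusted p = 0.00796) and Hist1h4i by 0.92 ± 0.18 (adjusted p = 0.00111). The added 1 FPKM shrinks these differences, most for the lowest genes. Of all 9841 genes tested, 37.4% were called lower and 24.8% higher with LPS in wild type, so a call to the lower side was itself common. The median difference of the 5 was -1.48 against -0.11 over all genes tested, and 6.62% of all genes lay below -1.48. Hist1h1c, Hist1h2bc and Hist2h2be passed the minimum of 1 FPKM only through the PBS groups. Their differences and p-values, the count of 5 of 5 and this median are therefore a description and not support. Hist3h2a and Hist1h4i were above 1 FPKM in all 12 libraries. In RNA of mixed cells, fewer cells of a type and less RNA per cell cannot be told apart. Over all genes, replicate 3 of wild type under PBS correlated less well with its group, and without it all 5 remained lower, by between 0.80 (Hist3h2a, adjusted p = 0.0323, limma) and 1.97 (Hist1h2bc). In that fit 35.9% of all genes tested were lower.

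**Figure D3:**
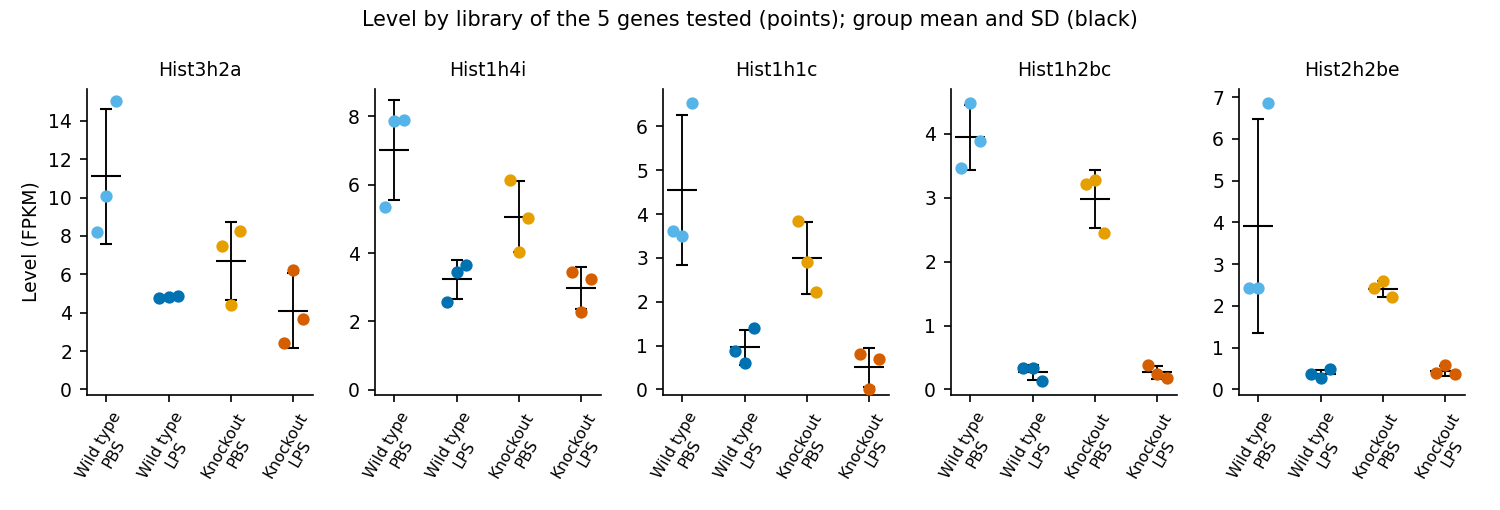
Level in FPKM (vertical axis, 1 scale a panel) of the 5 histone cluster genes tested, by group (horizontal axis). Points are libraries, and the black bar and whiskers are the mean and SD of 3 libraries. Hist1h2bc and Hist2h2be lie under 0.6 FPKM in all 6 LPS libraries and at or above 2.2 FPKM in all 6 PBS libraries.

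In the knockout 4 of the 5 genes were lower with LPS, where 33.3% of all genes tested were called lower and 19.9% higher. Hist1h2bc went from 3.22, 3.27 and 2.45 FPKM under PBS to 0.387, 0.235 and 0.184 FPKM under LPS, and fell by 1.65 ± 0.13 on the log2 scale (limma, adjusted p = 3.74e-06). Hist2h2be went from 2.43, 2.59 and 2.21 to 0.382, 0.581 and 0.370 FPKM, and fell by 1.24 ± 0.26 (adjusted p = 0.002). Both H2B genes were thus under 0.6 FPKM in every LPS library of either genotype. Hist1h1c went from 3.85, 2.91 and 2.21 to 0.806, 0 and 0.696 FPKM, and fell by 1.44 ± 0.27 (adjusted p = 0.00107). It was the 1 gene of the 5 with a library at 0. These 3 genes passed the minimum of 1 FPKM only through the PBS groups. Their differences and p-values are therefore a description and not support here too. Hist1h4i went from 6.13, 4.04 and 5.03 to 3.44, 2.27 and 3.23 FPKM, and fell by 0.60 ± 0.18 (adjusted p = 0.0153). Its groups lay close together and did not overlap, nor did those of the 3 genes before it (41.3% of all genes tested on this side). Without knockout PBS replicate 1 it was at -0.48 (adjusted p = 0.068) and without knockout LPS replicate 2 at -0.47 (adjusted p = 0.0676), and it no longer passed in either case.

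Hist3h2a did not pass in the knockout. It was at 7.46, 4.37 and 8.26 FPKM under PBS and at 2.43, 6.24 and 3.66 FPKM under LPS, so the groups overlapped, and the difference was -0.62 ± 0.28 (limma, adjusted p = 0.0824). Over the libraries left out in turn the difference was between -0.91 and -0.37 (limma, adjusted p from 0.0175 to 0.301), the weakest without knockout LPS replicate 1. It passed without knockout PBS replicate 2 (-0.86, adjusted p = 0.03) and without knockout LPS replicate 2 (-0.91, adjusted p = 0.0175), which are the 2 libraries that overlapped. With limma's array weights, which weigh down libraries that fit their group less well, it was -1.01 (adjusted p = 0.00146). That fit called more genes throughout, with 40.7% of all genes tested lower in this comparison against 33.3% in the main fit. Between genotypes under LPS it called 534 genes higher and 536 lower, against 0 in the main fit. The median over the 5 genes was -1.24, against -0.12 over all genes tested, with the same limit on its reading as in wild type.

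None of the 5 genes differed between genotypes past the threshold. Under PBS every knockout mean was below that of wild type, with differences on the log2 scale between -0.65 (Hist3h2a) and -0.32 (Hist1h2bc) and adjusted p between 0.502 and 0.636 by limma. Of all genes tested 0.112% were called in this comparison and 897 of 9841 had an unadjusted p under 0.05, among them Hist1h2bc, Hist3h2a and Hist1h4i. The Hist1h2bc groups did not overlap, its knockout libraries reaching 3.27 FPKM and its wild-type libraries starting at 3.47, a pattern that 7.34% of all genes tested had on this side. Several of these differences were smaller without wild-type PBS replicate 3. Hist2h2be was at -0.01 in place of -0.41, Hist1h1c at -0.21 in place of -0.45 and Hist3h2a at -0.43 in place of -0.65, while Hist1h2bc was at -0.32 both ways. Under LPS the differences lay between -0.41 (Hist1h1c) and 0.08 (Hist2h2be), with 0% of all genes called and 744 at an unadjusted p under 0.05, none of them a cluster gene.

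Whether the LPS difference itself depended on genotype was tested as an interaction, the knockout difference less that of wild type. It was 0.04 for Hist1h1c (95% confidence interval -0.80 to 0.87), 0.32 for Hist1h2bc (-0.08 to 0.72), 0.31 for Hist1h4i (-0.25 to 0.87), 0.48 for Hist2h2be (-0.32 to 1.28) and 0.40 for Hist3h2a (-0.47 to 1.27). The adjusted p values were between 0.594 and 0.978 by limma, and 0.0406% of all genes tested were called, with 946 at an unadjusted p under 0.05. The intervals thus allow a fall that was smaller in the knockout by up to 0.72 for Hist1h2bc and by over 1 for Hist2h2be and Hist3h2a. The passing of Hist3h2a in wild type and not in the knockout is therefore no shown difference between genotypes.

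**Figure D4:**
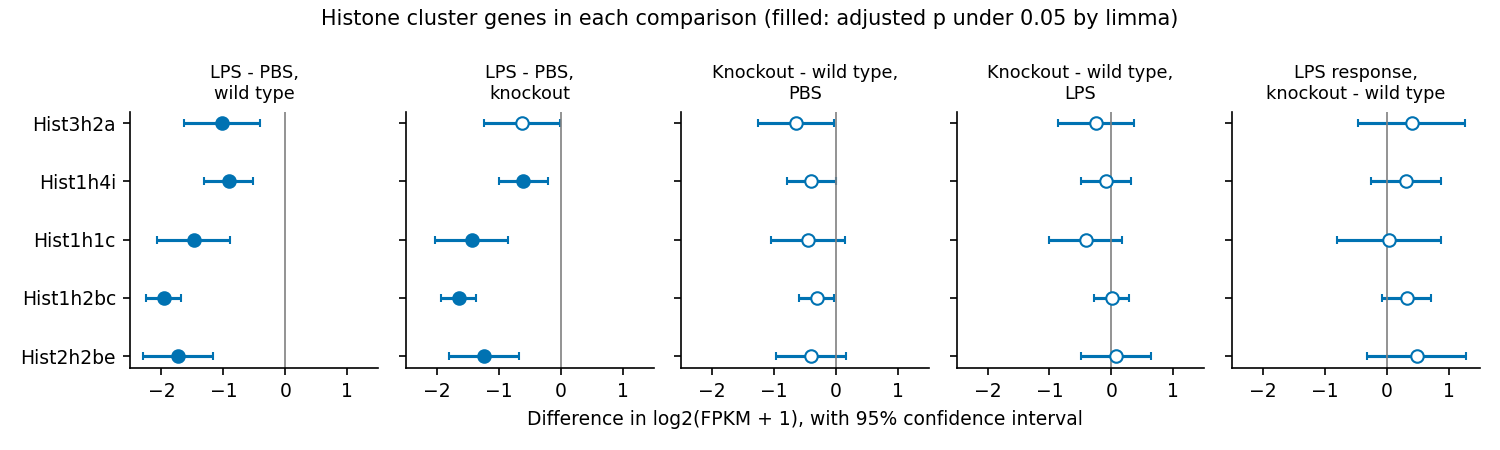
Difference in log2(FPKM + 1) (horizontal axis) of the 5 histone cluster genes in the 5 comparisons, with 95% confidence intervals from limma. Filled points passed an adjusted p under 0.05. In the first panel all 5 are filled on the lower side, in the second 4, and in the other 3 panels none. Hist1h1c, Hist1h2bc and Hist2h2be passed the minimum of 1 FPKM only through the PBS groups, so their filled points are a description and not support.

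Summed over all 67 genes, the level went from a median of 34.6 FPKM (lowest 30.4, highest 51.0) to 14.7 FPKM (12.9 to 21.9) with LPS in wild type, and from 27.2 FPKM (23.1 to 31.0) to 14.1 FPKM (10.7 to 14.96) in the knockout. The groups of either genotype did not overlap. By class, the H2B sum went from a mean of 10.7 ± 3.70 to 1.52 ± 0.218 FPKM in wild type and from 7.32 ± 0.933 to 1.53 ± 0.675 FPKM in the knockout (SD, n = 3). The H3 sum, which holds none of the 5, was at 0.832 ± 0.439 and 1.63 ± 1.22 FPKM in wild type and at 0.622 ± 0.261 and 1.23 ± 0.702 FPKM in the knockout (SD, n = 3), under PBS and LPS in that order. Its libraries overlapped between PBS and LPS in both genotypes. The H4 sum differed less than that of H2B, going from 9.53 ± 1.95 to 5.90 ± 1.67 FPKM in wild type and from 8.16 ± 1.41 to 5.19 ± 1.64 FPKM in the knockout (SD, n = 3), and its libraries overlapped between PBS and LPS in both genotypes. No test was run on these sums.

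The 62 genes below the minimum gave no such picture. Of the 588 library values of the 49 genes that were above 0 somewhere, 347 (59.0%) were 0, and the median of the others was 0.201 FPKM. Summed, these genes lay at 6.20 to 10.8 FPKM under PBS and 3.92 to 11.3 under LPS in wild type, and at 5.89 to 7.89 and 2.56 to 7.51 FPKM in the knockout, so that the groups overlapped. Hist1h4c was at 0.430, 0 and 0.447 FPKM under PBS and 0.232, 1.02 and 2.08 FPKM under LPS in wild type. In the knockout it was at 1.14, 0.699 and 1.22 FPKM under PBS and 2.04, 0.405 and 0.427 FPKM under LPS. Its LPS libraries spanned its PBS libraries in the knockout. Hist1h4d was at 0, 0 and 0.442 FPKM under PBS and 0.459, 0.755 and 0.677 FPKM under LPS in wild type. It overlapped in the knockout, at 1.13, 0.234 and 0.971 against 0.669, 0.594 and 0.211 FPKM. Hist3h2ba, the H2B neighbour of Hist3h2a, was at 0.850, 0.444 and 2.34 FPKM in wild type under PBS and at 0 in all 3 knockout libraries under PBS. Under LPS it was at 0, 0.631 and 0.3 FPKM in wild type and at 0, 0.275 and 0 FPKM in the knockout.

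Counted over all 67 genes, the groups of 9 did not overlap and were lower with LPS in wild type, and those of 4 were higher, against 23.7% and 14.6% of every gene in the files. In the knockout 8 were lower and 2 higher, against 25.1% and 12.8%. These shares of the cluster genes, which include the 13 at 0 throughout, are below the background in each case. The lower genes under the minimum were H2A, H2B and H4 genes. They were Hist1h2be, Hist1h2bq, Hist1h4k and Hist2h2aa2 in wild type and Hist1h2ae, Hist1h2be, Hist1h2bg and Hist1h4k in the knockout, named here after their values were seen. The higher ones were Hist1h3a, Hist1h4b, Hist1h4d and Hist1h4f in wild type and Hist1h3e and Hist1h3i in the knockout, all H3 or H4 genes and also named after their values were seen. The split by class was not tested, and some values lay near 0. Hist1h3i was at 0 in every knockout PBS library and at 0.179, 0.156 and 0.170 FPKM under LPS, with 12.4% unique windows. Hist1h2bq was at 0.0226, 0.0234 and 0.0235 FPKM in wild type under PBS and at 0 under LPS, with 2.75% unique windows. Hist1h2be, above 0 in all 12 libraries, was at 1.002, 0.968 and 0.461 FPKM under PBS and 0.0450, 0.0229 and 0.180 FPKM under LPS in wild type. Between genotypes under PBS, 2 genes were lower in the knockout without overlap (Hist1h2bc and Hist3h2ba) and 1 was higher (Hist1h4c), against 4.95% and 3.73% of every gene. Under LPS 2 were lower (Hist1h4b and Hist1h4f) and 0 higher, against 6.61% and 3.13%. Tested without a minimum level, 10 of 54 genes were called lower and 2 higher with LPS in wild type, where 27.6% and 16.2% of all 16623 genes so tested were. Hist1h4f was then also called lower in the knockout under LPS and in the interaction, where 2 and 1 of all 16623 genes were lower, on values of 0.239, 0.265 and 0.234 FPKM in wild type under LPS and 0 in the other 9 libraries.

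Of 21 tested genes for the transcription and 3' end formation of histone mRNA, 9 were higher and 2 lower with LPS in wild type, where 24.8% of all genes tested were higher and 37.4% lower. In the knockout 5 were higher and 3 lower, against 19.9% and 33.3% of all genes. Slbp, whose product binds the stem-loop, went from 18.9 ± 1.67 to 26.2 ± 5.35 FPKM in wild type (SD, n = 3; difference 0.44 ± 0.14, limma, adjusted p = 0.0196). It went from 17.3 ± 0.819 to 24.9 ± 3.20 FPKM in the knockout (SD, n = 3; difference 0.50 ± 0.14, limma, adjusted p = 0.0125). Npat, the cofactor that switches on the cluster genes in S phase, was higher in wild type (0.77 ± 0.12, limma, adjusted p = 0.00026) and at 0.26 ± 0.12 in the knockout, where it did not pass. E2f1, a transcription factor of S phase entry, was higher in both (0.87 ± 0.20 and 1.09 ± 0.20). Zcchc6, a uridylyltransferase that takes part in histone mRNA decay, was lower in both (-0.61 ± 0.09 and -0.57 ± 0.09), as was Lsm10, a part of the U7 particle that cuts histone pre-mRNA (-0.57 ± 0.12 and -0.35 ± 0.12). The median of the list was 0.22 in wild type and 0.15 in the knockout. Without the pair of libraries richest in erythroid RNA the counts were 6 higher and 3 lower in wild type and 2 higher and 1 lower in the knockout, where Lsm10, Srrt, Ncbp1, Coil and Hinfp no longer passed. Of all genes tested, 20.3% were then higher and 33.9% lower in wild type, and 15.8% and 29.0% in the knockout. Without knockout LPS replicate 2 the knockout counts were 1 higher and 1 lower, with Slbp no longer passing, against 15.5% and 28.4% of all genes tested. Slbp and Casp8ap2 no longer passed in wild type without PBS replicate 3 or LPS replicate 2. Scaled by the median of ratios, 14 were higher and 1 lower in the knockout, against 29.9% and 24.5% of all genes tested.

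Histone chaperones, which carry new histones to DNA, were more often higher than lower with LPS. Of 21 tested, 13 were higher and 1 lower in wild type (median 0.49), and 10 were higher and 2 lower in the knockout (median 0.31). For this count and those below, 24.8% of all genes tested were higher and 37.4% lower in wild type. In the knockout 19.9% were higher and 33.3% lower. Nasp, a carrier of H3 and H4, went from 5.82 ± 0.878 to 20.3 ± 3.31 FPKM in wild type (SD, n = 3; difference 1.64 ± 0.18, limma, adjusted p = 2.04e-05). Hat1, which acetylates new H4, rose by 1.28 ± 0.16 and 1.11 ± 0.16 in wild type and knockout, and Chaf1a, a subunit of the assembly factor CAF-1, by 1.02 ± 0.17 and 0.99 ± 0.17. Ubn1, a subunit of the HIRA complex that places H3.3 outside replication, was lower in both (-0.54 ± 0.09 and -0.40 ± 0.09). Of 34 tested replication genes, 25 were higher and none lower in wild type (median 0.88), and 23 were higher and none lower in the knockout (median 0.85), with Mcm5 of the replicative helicase at 2.05 ± 0.23 and 2.01 ± 0.23. Genes of G2 and mitosis did not share this: 0 of 16 were higher and 1, Aurkb, was lower in wild type, and 0 were higher and 4 lower in the knockout. Aurkb no longer passed without wild-type PBS replicate 2 or 3 or any 1 of the wild-type LPS libraries. Without wild-type PBS replicate 2, knockout PBS replicate 2 or knockout LPS replicate 1, Top2a was called higher in wild type. Ccna2 and Nusap1 no longer passed in the knockout without its PBS replicate 2 or 3 or LPS replicate 1 or 2. Ccnb2 no longer passed there without PBS or LPS replicate 2. Under both other scalings Aurkb no longer passed, 1 gene was higher in wild type, and 2 were lower in the knockout. With median of ratios and upper quartile scaling, 33.9% and 28.5% of all genes tested were higher in wild type. In the knockout 24.5% and 29.9% were lower. Mki67, a marker of cycling cells, was at 3.82 ± 1.94 and 4.95 ± 0.491 FPKM in wild type (SD, n = 3; difference 0.37 ± 0.32, limma, adjusted p = 0.335). The Hist3h2a, Hist1h4i, Hist1h1c, Hist1h2bc and Hist2h2be differences thus had the opposite sign to those of most replication genes. Hist1h1c, Hist1h2bc and Hist2h2be passed the minimum of 1 FPKM only through the PBS groups, so their sign is a description and not support.

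**Figure D5:**
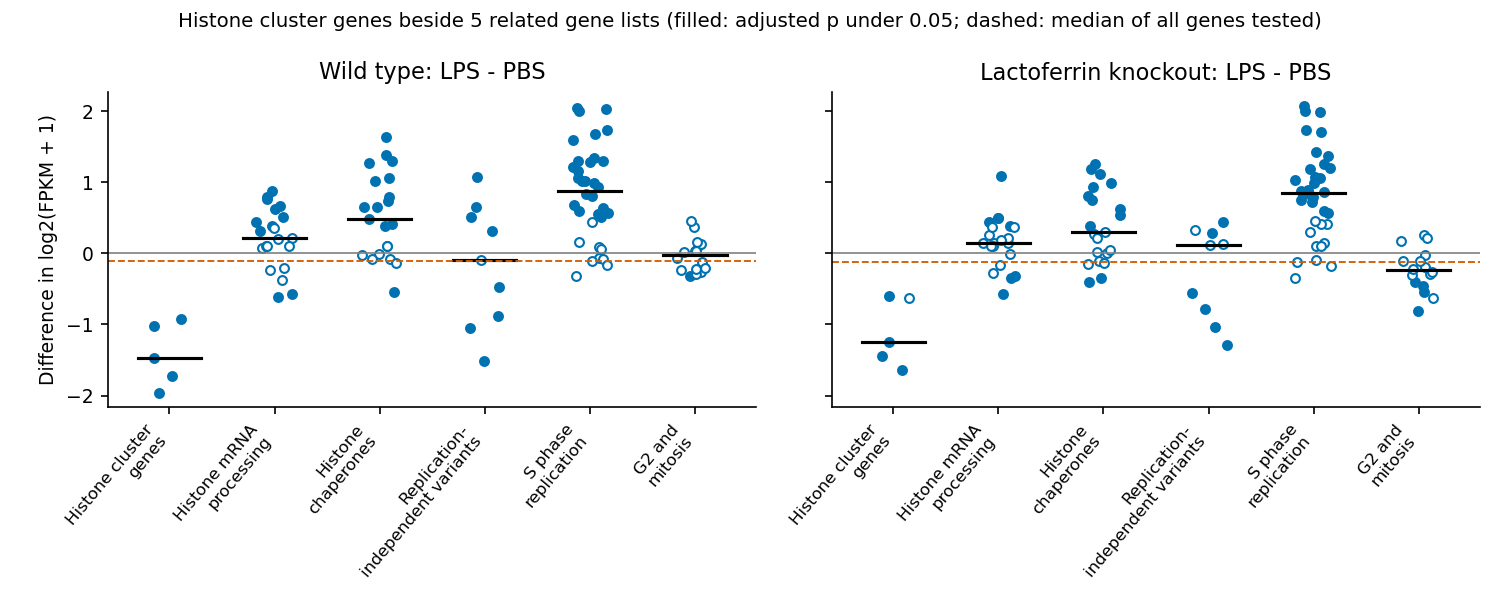
Difference with LPS in log2(FPKM + 1) (vertical axis) in wild type (left) and lactoferrin knockout (right) for the 5 histone cluster genes and the tested genes of 5 related lists (horizontal axis). Each point is a gene, filled where the adjusted p by limma was under 0.05, black bars are list medians, and the dashed line is the median of all genes tested. The cluster genes have a median of -1.48 in wild type, and the S phase genes one of 0.88. Hist1h1c, Hist1h2bc and Hist2h2be passed the minimum of 1 FPKM only through the PBS groups, so the cluster median is a description and not support.

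The histone variants that are made outside S phase, mostly from polyadenylated mRNAs, split in direction. H3f3a and H3f3b, which both encode H3.3, were at 401 ± 35.0 and 253 ± 23.6 FPKM in wild type under PBS (SD, n = 3), while all 12 H3 cluster genes together reached 3.02 FPKM at most. Whether poly(A) RNA was selected is not given, and the H3 cluster transcripts had a median of 38.0% unique windows. The part of either in this gap was not tested. With LPS H3f3a was at 287 ± 4.72 FPKM and H3f3b at 399 ± 27.9 FPKM in wild type (SD, n = 3), differences of -0.48 ± 0.11 and 0.66 ± 0.11 by limma, and in the knockout the differences were -0.56 ± 0.11 and 0.28 ± 0.11. H2afz and H2afv, which encode the 2 forms of H2A.Z, also went opposite ways. H2afz went from 161 ± 4.10 to 339 ± 39.0 FPKM (SD, n = 3; difference 1.07 ± 0.16, limma, adjusted p = 0.000178) and H2afv from 5.38 ± 2.18 to 1.17 ± 0.274 FPKM (SD, n = 3; difference -1.51 ± 0.19, limma, adjusted p = 5.56e-05) in wild type. In the knockout they were at 0.44 ± 0.16 and -1.28 ± 0.19, and both passed. H1f0, a linker histone of resting cells, fell by 0.88 ± 0.32 and 1.04 ± 0.32. In wild type under PBS it was at 6.18, 7.18 and 20.3 FPKM, and without replicate 3 the difference was -0.39 (limma, adjusted p = 0.0367). It no longer passed without any 1 of the wild-type LPS libraries (limma, adjusted p = 0.0545 to 0.0866), nor in the knockout without PBS or LPS replicate 2 (limma, adjusted p = 0.0518 and 0.0624). Cenpa, the centromeric H3, fell by 1.05 ± 0.14 and 0.78 ± 0.14. Of 9 tested, 4 were higher and 4 lower in wild type, where 24.8% of all genes tested were higher and 37.4% lower. In the knockout 2 were higher and 4 lower, against 19.9% and 33.3% of all genes. Without the pair of erythroid-rich libraries 2 were higher and 3 lower in wild type and 0 higher and 4 lower in the knockout, where H2afz and H3f3b no longer passed. Of all genes tested, 20.3% were then higher and 33.9% lower in wild type, and 15.8% and 29.0% in the knockout. The H2afz and H3f3b calls in the knockout were also lost without any 1 of the knockout LPS libraries, and without knockout PBS replicate 1 or 3 or wild-type LPS replicate 3. H2afx and H2afy were no longer called higher in wild type without PBS replicate 3, LPS replicate 2 or LPS replicate 3. In none of these 5 lists was a gene called between genotypes or in the interaction.

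Marker genes of several cell types moved with LPS in the same libraries, and their part in the histone values was not tested. Beside the counts below, 37.4% of all genes tested were lower and 24.8% higher in wild type. In the knockout 33.3% were lower and 19.9% higher. The summed markers of neutrophils went from 1956 to 3262 FPKM under PBS to 155 to 283 FPKM under LPS in wild type, with 6 of 8 tested markers lower. In the knockout they were at 1200 to 3035 and 719 to 2686 FPKM, with 2 of 8 lower and 1 higher. The part of neutrophils in the Hist1h2bc and Hist2h2be values, at 0.129 to 0.581 FPKM under LPS over both genotypes, was not tested. The 7 B cell markers went from 539 to 1133 FPKM to 242 to 345 FPKM in wild type and from 662 to 912 to 148 to 256 FPKM in the knockout, with 5 of 7 lower in each. The 5 monocyte markers went from 260 to 680 to 70.7 to 82.3 FPKM in wild type (5 of 5 lower) and from 303 to 428 to 98.3 to 217 FPKM in the knockout (4 of 5 lower). T cell markers went from 33.0 to 45.9 to 13.0 to 14.8 FPKM in wild type (6 of 6 tested lower). In the knockout they overlapped, at 14.99 to 21.8 and 7.43 to 15.5 FPKM, with 1 of 6 lower. The macrophage markers, summed, overlapped between PBS and LPS in wild type (970 to 2078 and 939 to 1298 FPKM), with 4 of 9 lower and 1 higher. In the knockout they did not overlap (1167 to 1871 and 1111 to 1128 FPKM), with 6 of 9 lower and 1 higher. The 5 mesothelial markers summed to between 0.106 and 3.87 FPKM. Erythroid markers reached 2226 FPKM in wild-type LPS replicate 2 and 1886 FPKM in knockout LPS replicate 1, against at most 330 FPKM elsewhere. Without both libraries 5 cluster genes were called lower in wild type and 4 in the knockout, where 33.9% and 29.0% of all genes tested were. Among them Hist1h1c, Hist1h2bc and Hist2h2be passed the minimum of 1 FPKM only through the PBS groups, so these counts are a description.

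The libraries summed to between 343874 and 388129 FPKM with 13921 to 14574 genes above 0, and relative depth, estimated from low values, of the other 11 libraries lay at 0.927 to 0.99 of the first wild-type PBS library. The read number behind a value is unknown. Wild-type PBS replicate 3 had Spearman correlations of 0.949 and 0.934 with the rest of its group, while other pairs within groups had at least 0.973. Ltf was at 1.16 to 1.89 FPKM in wild type and 0.183 to 0.258 FPKM in the knockout under PBS, and at 0.176 to 1.33 and 0.0699 to 0.117 FPKM under LPS. Whether each library stands for 1 animal is not stated, so the p-values rest on the spread among libraries, which may be technical.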

How the data were processed

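RNA of peritoneal lavage cells was sequenced in 12 libraries. The authors deposited 1 table a library, taken here as FPKM because the values are not whole, have unlike totals and Cufflinks is named. TopHat, Cufflinks, HTSeq, DESeq and GRCm38 are named without versions or roles, per the submitters' processing notes. The knockout titles speak of wild-type mice, and groups follow the codes and characteristics. Symbols turned into dates (27 of 21878) were left out. The histone genes and lists were chosen with earlier results of these data known. The 9841 genes whose mean reached 1 FPKM were fitted with limma 3.58.1 in R 4.3.3 on log2(FPKM + 1), with 1 term a group, 8 residual degrees of freedom, trend and robust variances, two-sided tests and Benjamini-Hochberg adjustment over all genes tested, at a threshold of 0.05. The fit was tested on simulated data. Named genes are those at or above the minimum and the 3 just under it, and other low genes were named after their values were seen. Cell marker and pathway lists are described by counts and medians. Alternatives changed the pseudocount, minimum, scaling, variance model, weights, block and libraries, and their application to the lists and to fold changes of means was added after seeing the data. Stem-loops and windows were read from GENCODE M21 transcripts, and promoters from RefSeq on GRCm38.p6.

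Dendritic cell, natural killer and mast cell lists had 2, 4 and 6 tested genes, of which 0, 0 and 2 were higher and 1, 2 and 0 lower with LPS in wild type, and 1, 1 and 0 higher and 0, 1 and 0 lower in the knockout. Over all genes tested, 24.8% were higher and 37.4% lower in wild type, and 19.9% and 33.3% in the knockout.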

Additional observations from a re-analysis of the deposited data

How the results depend on the processing

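Of the recomputed differences 506 kept their direction and their side of the threshold, 14 reversed, 3 came to pass and 2 no longer passed. Leaving out a library of 1 genotype cannot move the LPS difference of the other, and most of the 25 main differences did not pass. The 506 is therefore no measure of how stable the called differences are. Without a minimum level, the counts were 10 lower and 2 higher for LPS in wild type (27.6% and 16.2% of all 16623 genes), and 1 lower each for knockout against wild type under LPS and for the interaction (2 and 1 of all genes). With a minimum of 5 FPKM only Hist3h2a was tested, which left 1 lower for LPS in wild type and 0 in the knockout. Of all genes so tested, 33.7% and 31.0% were lower. Leaving out each library in turn gave 5 lower in wild type and 3 to 5 in the knockout. In these fits 32.8% to 37.5% of all genes tested were lower in wild type and 27.8% to 36.8% in the knockout. Same-numbered libraries did not deviate together, with correlations of -0.25 to 0.19 and 3 of 12 pairs over 0.1. The number as a replicate block gave 5 lower in wild type and 4 in the knockout, with Hist3h2a at adjusted p = 0.0902 (limma) there. Of all genes tested, 36.6% and 32.3% were then lower. At the minimum of 1 FPKM, Hist1h1c, Hist1h2bc and Hist2h2be passed only through the PBS groups, so such counts are a description and not support.

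Directions reversed among differences that did not pass. The Hist1h1c interaction was -0.72 with 0.1 FPKM added, -0.11 with array weights, -0.25 without the pair of erythroid-rich libraries and -0.20 to 0.31 over the libraries left out. The Hist3h2a interaction was -0.25 and Hist2h2be between genotypes under LPS -0.029 with array weights. Between genotypes under LPS, Hist1h2bc was -0.020 without the erythroid-rich pair and -0.078 to 0.051 over the libraries left out, and Hist1h4i was -0.20 to 0.046. The cause was not tested. Scaling by the median of ratios moved the median of all genes with LPS from -0.11 to 0.05 in wild type and from -0.12 to 0.04 in the knockout, and the shares called lower and higher from 37.4% and 24.8% to 29.1% and 33.9%, and from 33.3% and 19.9% to 24.5% and 29.9%. The same 5 and 4 cluster genes stayed lower, Hist1h4i in the knockout at adjusted p = 0.0486 (limma). In the lists Lsm10 and Hinfp in the knockout and H1f0 in wild type no longer passed, and 14 in place of 5 processing genes were higher in the knockout. The read number behind a low FPKM is unknown, which limits the 62 genes under the minimum.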
